A study of Homo sapiens with 9 samples.

Results

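TCam-2 cells in which the endogenous ESX1 gene was activated by CRISPRa were compared with TCam-2 cells given gRNAs that match no human sequence. The comparison took the 3 samples labelled as ESX1 gene activation (ESX1) and the 3 labelled as negative control (NC), 6 of the 9 samples of the series, and all genes. TCam-2 is a human testicular seminoma cell line, a tumour line that keeps features of early germ cells. The question was which genes change when ESX1, a homeobox gene of the germ line, is switched on.

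The ESX1 cells were co-transfected with px335_G2P vectors, which carry GFP and the gRNAs for ESX1, and with PB-TRE-dCas9-VPR, the doxycycline-inducible activator. The NC cells received px335_G2P with nonspecific gRNAs. The study describes antibiotic (puromycin) selection and doxycycline induction for both transfected groups. The study's description does not say whether NC cells were also given dCas9-VPR, so the activator itself and its target cannot be told apart in this comparison. The 3 wild type samples (WT) had no modification and enter below as a side reference. Each group had 3 biological replicates, given throughout in the order 1, 2, 3. After selection GFP was seen in only part of the cells of both transfected groups, so every value is a mean over cells with and without the vectors. In such bulk RNA, fewer cells expressing a gene and less of its RNA per cell cannot be told apart.

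ESX1 encodes a paired-like homeobox protein expressed in the germ cells of the testis and in placenta. Homeobox proteins bind DNA through a homeodomain, and many homeodomains recognise short A- and T-rich sites. In CRISPRa a catalytically dead Cas9 fused to the activation domains VP64, p65 and Rta is guided to a promoter, where it recruits the transcription machinery without cutting DNA. Interferon-stimulated genes, which turn out to differ between these samples, form a second system: type I interferon activates a complex that includes STAT2 and IRF9 and binds GAAA-repeat elements in front of antiviral genes.

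The sequence in front of ESX1 is shown first because ESX1 is the activated gene and this is the stretch next to its start. It is followed by the same stretch of 3 interferon-stimulated genes, IFI6, IFIT1 and ISG15, because such genes split the ESX1 samples and are described apart from the rest. What caused that split was not tested. Each run gives the 250 bases before the gene start, 5′ to 3′ on the gene's own strand, from RefSeq on GRCh38.p14. Capitals mark GAAANNGAAA, the repeat core of an interferon response element, on either strand. The ESX1 stretch holds 0 matches and is printed in lower case throughout, at chrX:104254934-104255183 on the minus strand.
ESX1: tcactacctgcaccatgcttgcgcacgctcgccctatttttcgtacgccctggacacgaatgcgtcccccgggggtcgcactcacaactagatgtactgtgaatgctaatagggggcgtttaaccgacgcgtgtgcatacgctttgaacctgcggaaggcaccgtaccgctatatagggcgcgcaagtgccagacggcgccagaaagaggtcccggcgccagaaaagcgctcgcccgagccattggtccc
The IFI6 stretch lies at chr1:27672193-27672442 on the minus strand and has 3 matches.
IFI6: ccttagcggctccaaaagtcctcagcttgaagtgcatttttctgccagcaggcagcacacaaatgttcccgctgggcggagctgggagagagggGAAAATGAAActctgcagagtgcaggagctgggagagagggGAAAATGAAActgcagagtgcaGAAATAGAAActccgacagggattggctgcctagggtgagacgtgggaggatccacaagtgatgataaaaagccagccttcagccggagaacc
The IFIT1 stretch lies at chr10:89392373-89392622 on the plus strand and has 2 matches, both read on the opposite strand.
IFIT1: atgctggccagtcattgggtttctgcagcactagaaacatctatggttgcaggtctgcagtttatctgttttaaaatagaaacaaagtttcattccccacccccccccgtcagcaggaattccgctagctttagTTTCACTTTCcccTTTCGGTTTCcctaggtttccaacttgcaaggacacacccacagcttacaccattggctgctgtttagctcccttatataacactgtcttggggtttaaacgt
The ISG15 stretch lies at chr1:1013247-1013496 on the plus strand and has 2 matches, which overlap and form 1 run of capitals.
ISG15: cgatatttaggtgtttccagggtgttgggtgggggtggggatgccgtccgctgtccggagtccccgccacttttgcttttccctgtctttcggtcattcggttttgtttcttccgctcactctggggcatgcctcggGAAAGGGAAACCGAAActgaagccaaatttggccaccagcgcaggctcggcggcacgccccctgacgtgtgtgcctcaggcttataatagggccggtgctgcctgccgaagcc

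Between 5212804 and 10644408 read pairs were assigned to genes per sample, with the lowest number in ESX1 replicate 3. The share from mitochondrial genes was 19.2 to 19.9% in ESX1, 14.5 to 15.3% in NC and 17.0 to 18.3% in WT. Within groups, the pairwise correlation of log2 values was 0.967 to 0.980. All levels below are counts scaled to library size after TMM normalization (CPM), and fold changes are log2 differences from edgeR's quasi-likelihood model of all 9 samples, with approximate standard errors (SE). The SE was calculated back from the test, as the size of the log2 difference divided by the square root of its F statistic. A gene was called higher or lower at a Benjamini-Hochberg adjusted p under 0.05 over the 18452 tested genes and a change of at least 2-fold, and "upregulated" and "downregulated" are used only for such genes.

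The line's own markers were present in every sample. All 11 seminoma markers examined, among them POU5F1, NANOG, TFAP2C and SOX17, passed the filter on low counts. Their summed level was 1865 to 2254 CPM in ESX1, 3539 to 3699 CPM in NC and 4539 to 5426 CPM in WT, so the ESX1 samples held the lowest level. Of the marker lists of other cell types, the 6 immune genes summed to 0.905 to 1.29 CPM in ESX1 and 0.509 to 1.24 CPM in NC, with CD3E, CD68 and LYZ at 3 counts or fewer over all 9 samples. The 6 Leydig cell genes reached 2.41 to 6.49 CPM in ESX1 and 3.16 to 5.91 CPM in NC, with HSD3B2 and INSL3 at that floor. The 7 Sertoli cell genes gave 18.9 to 41.3 CPM against 26.1 to 31.5 CPM, with FSHR at the floor and 1 gene, SOX9, called higher. The 6 endothelial genes gave 47.8 to 63.6 CPM against 42.1 to 53.5 CPM, with EMCN at the floor. The 8 fibroblast genes gave 113 to 231 CPM against 140 to 175 CPM, and 1 of them, THY1, was called lower.

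ESX1 was measured at 57, 55.7 and 31.4 CPM in the ESX1 samples, 3.63, 2.89 and 3.46 CPM in NC and 3.6, 4.08 and 3.13 CPM in WT. Every activated sample was above every control, and replicate 3 was the lowest of the 3 activated samples. The log2 difference from NC was 3.85 (SE 0.24), adjusted p = 4.48e-08. The gene lies at chromosome X, bases 104250038 to 104254933 on the minus strand (GRCh38). Within 1 Mb of it lie 42 other genes of the annotation, of which 12 passed the filter on low counts. By edgeR's test 0 of the 12 were called, and 2 had an unadjusted p under 0.05.

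The interferon-stimulated genes set one ESX1 sample apart from the other 2 and are given before the rest for that reason. The summed level of the 77 tested members was 2314, 3947 and 2112 CPM in ESX1, 4214, 4085 and 4031 CPM in NC and 2290, 2236 and 2304 CPM in WT. By this sum, which abundant members dominate, ESX1 replicate 2 lay beside the NC samples, and ESX1 replicates 1 and 3 lay beside WT. By the mean log2 CPM of the members, replicates 1 and 3 (2.84 and 2.73) lay above every WT sample (2.25 to 2.38). They stayed well below NC (4.22 to 4.26). Counted gene by gene, 63, 31 and 68 of the 77 members were below every NC sample in ESX1 replicates 1, 2 and 3.

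MX1, a GTPase that blocks virus replication, shows the split most plainly. Its level was 7.2, 232 and 10.2 CPM in ESX1, 264, 259.5 and 254 CPM in NC and 4.37, 7.73 and 13.8 CPM in WT, and with such a spread within ESX1 the difference from NC was −1.62 (SE 0.75) with an adjusted p of 0.294. IFI6, an interferon-induced mitochondrial protein, was at 0.913, 38.4 and 1.85 CPM in ESX1 and 56.4, 44.5 and 37.5 CPM in NC. IFIT1, which binds foreign RNA caps, gave 2.74, 44.1 and 3.32 CPM against 47.2, 45.8 and 44.2 CPM. OAS1, a sensor of double-stranded RNA, gave 0.71, 11 and 0.554 CPM against 17.2, 15.4 and 15.5 CPM. In each of these 3 genes ESX1 replicate 2 was far above the other ESX1 samples. ISG15, a ubiquitin-like modifier, was at 2.13, 39.4 and 3.14 CPM in ESX1 and 24.4, 21 and 18.8 CPM in NC, so that replicate 2 exceeded even the NC samples.

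The split was smaller in several abundant members. ADAR, an RNA-editing enzyme with an interferon-induced form, was at 456, 559.7 and 405 CPM in ESX1, 592, 561 and 569 CPM in NC and 459, 452 and 498 CPM in WT. EIF2AK2, the kinase PKR, gave 177, 387 and 207 CPM in ESX1 against 337, 395 and 369 CPM in NC, and ZC3HAV1, an antiviral RNA-binding protein, 88, 139 and 81.6 CPM against 135, 127 and 132 CPM. In these 3 genes too, ESX1 replicate 2 lay beside NC and replicates 1 and 3 lay below it. In RNF213, at 230.5, 215 and 199.7 CPM against 247, 233 and 229.7 CPM, and ZNFX1, at 132, 133 and 117 CPM against 154, 137 and 139 CPM, replicate 2 did not stand apart from replicate 1. STAT2, a transcription factor of the interferon response, was below NC in all 3 ESX1 samples, at 203, 291 and 228 CPM against 361, 326 and 325 CPM, a log2 difference of −0.49 (SE 0.13) that passed the adjusted p (0.0375) and not the fold.

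Over the 9-sample model, 0 of the 77 members were called higher and 2 lower in ESX1 than in NC (2.6%, beside 0.699% of all tested genes). The median log2 difference of the list was −0.55 beside 0.00 over all tested genes. The 2 were IFI16, a nuclear DNA sensor (18.4, 48.4 and 12.2 CPM against 61.1, 70.4 and 68.7 CPM, log2 difference −1.31 (SE 0.30)), and LGALS3BP, a secreted glycoprotein (4.06, 11.3 and 6.1 CPM against 16.5, 18.1 and 15.5 CPM, −1.21 (SE 0.32)). Both calls were lost without ESX1 replicates 1 or 3 and without NC replicates 2 or 3, and that of LGALS3BP also without NC replicate 1. Without ESX1 replicate 2, the model called 34 members lower, and the median was −0.94. Without ESX1 replicate 1 or without ESX1 replicate 3, it called 0. With all samples kept, 17 members were called lower with the replicate number as a block, 18 with no filter on low counts and 16 by limma, so the count of called members turned both on the ESX1 samples included and on these settings. Between NC and WT, which share no such split, 42 members were higher and 0 lower in NC, with a median of 1.56.

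The interferon receptors, sensors and signalling genes did not follow the stimulated genes. Of 20 tested members, among them JAK1, TYK2, MAVS and IRF3, 0 were called by edgeR's test in either direction, and the median log2 difference was 0.14. An unadjusted p under 0.05 was reached by 3 members, and DESeq2 called 0 and limma 1. Of 21 NF-kB targets and cytokines, a neighbouring inflammatory system, 0 were called by edgeR, DESeq2 or limma, 2 had an unadjusted p under 0.05, and the median was 0.21.

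Across all genes, 199 were called higher and 129 lower in ESX1 than in NC. That is 328 of 18452 tested genes, 1.78% in all, 1.08% higher and 0.699% lower. The shares of list members called, given below in brackets, are to be read beside these values. Without an adjustment, 2953 genes had p under 0.05. By size, 90 of the higher genes and 12 of the lower genes changed at least 4-fold, and 54 of the higher genes had a mean under 1 CPM in NC. The 2 groups did not overlap in 326 of the 328 genes, against 22.6% of all tested genes. The 2 exceptions, chosen after their values were seen, were HSPG2 and CH507-513H4.4. The latter is a multi-copy locus on chromosome 21 at 0, 0 and 997 CPM in ESX1, 0, 0.107 and 0 CPM in NC and 1.31, 685 and 26.2 CPM in WT, with its ESX1 level from replicate 3 alone, and its call was lost without that sample and without each of the NC samples. With the same rule, 5.27% of the tested genes were called between NC and WT and 11.5% between ESX1 and WT. These comparisons share samples with the main one.

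The genes called outside the interferon lists were selected for a difference of the 3 ESX1 samples from NC, so a gene split like MX1 could hardly be among them, and their values per sample are a description only. Of the 199 higher and 127 lower genes outside the interferon lists, 198, 197 and 199 were above every NC sample in ESX1 replicates 1, 2 and 3, and 127 in each replicate were below every NC sample. ESX1 replicate 2, which had the interferon level of NC, gave a median log2 ratio to the NC mean of 1.35 for the higher genes and −1.07 for the lower genes. In replicates 1 and 3 the medians were 1.78 and 1.54 for the higher genes and −1.29 and −1.35 for the lower genes. Removing the interferon lists from the count table before normalization left 325 of 326 calls. For the remaining genes that step alters only the scaling, the shared estimate of spread and the p adjustment. It therefore cannot show whether they follow the interferon level. Removing ESX1 replicate 2 left 278 of the 328 calls and gave 223 higher and 211 lower genes. Removing ESX1 replicate 1 left 219 and removing replicate 3 left 214.

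A further fit entered the mean log2 CPM of the interferon-stimulated genes as a covariate in the model. It left 72 genes higher and 36 lower, and 92 of the 328 calls. The median log2 difference of the called genes was then 1.63 for the higher and −1.13 for the lower ones, in place of 1.83 and −1.27, and 1 of 328 changed sign. The covariate takes 1 of the 6 residual degrees of freedom and moves with the groups, since all 3 NC samples are at its upper end. Its values were 2.84, 4.2 and 2.73 in ESX1, 4.26, 4.23 and 4.22 in NC and 2.38, 2.25 and 2.26 in WT. Within groups it varies mainly through ESX1 replicate 2, so the adjusted comparison leans on that 1 sample. A call kept or lost with it therefore cannot by itself separate a gene from the interferon level. Of the 86 called genes named below by rule, 36 kept their call with the covariate, among them GRIN2B, ADAM19, NPTX1, HMCN1, RRAGD, FADS1, NANOG and SERPINE2.

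**Figure D1:**
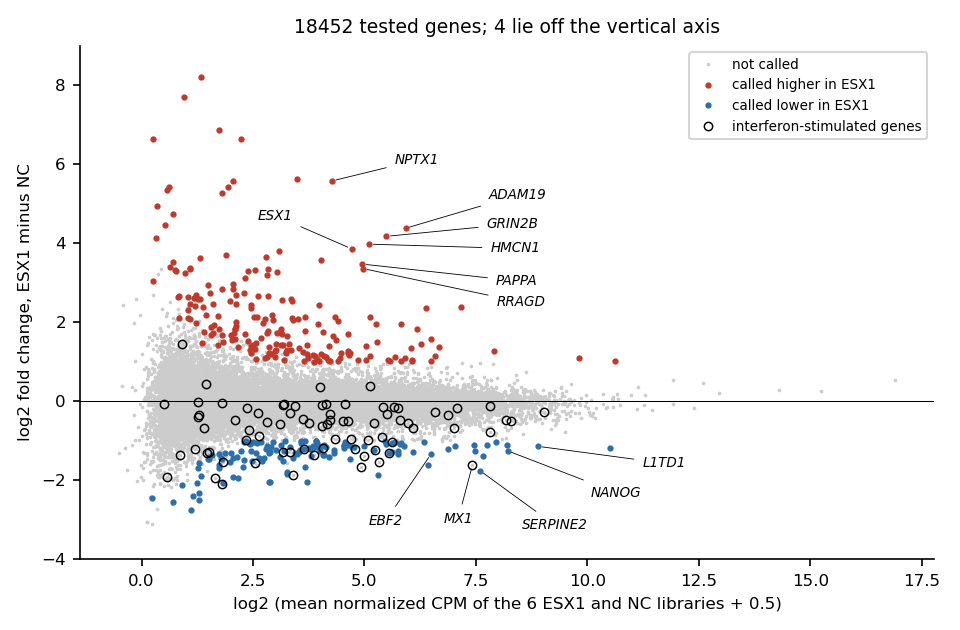
Each point is 1 tested gene, with the log2 of its mean CPM + 0.5 over the ESX1 and NC samples on the horizontal axis and the log2 difference of ESX1 from NC on the vertical axis. The genes called higher and lower are red and blue, and of the 77 interferon-stimulated genes (open circles) 73 have a negative value. The 4 genes off the axis belong to the multi-copy CH507-513H4 locus.

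By annotation, 178 protein-coding genes were called higher and 90 lower, of 13443 tested (1.99%). Of 1141 long non-coding RNAs, 12 were higher and 10 lower (1.93%). The 51 tested genes that the study itself had picked out from these samples gave 32 higher and 14 lower. They were chosen on the same data and are no independent evidence. The other 167 higher and 115 lower genes were not among them, and 231 called genes belonged to none of the 38 gene lists used here.

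The largest rises outside the study's own genes came from genes that were silent or nearly silent in NC. GNG8, a G protein gamma subunit, had 4.66, 4.93 and 2.59 CPM in ESX1 and 0 counts in all 3 NC samples, which makes it at least 41.5-fold higher against a floor of 3 counts over the group (adjusted p = 0.000142). C20orf166-AS1, an antisense RNA, had 4.06, 2.82 and 1.66 CPM in ESX1 and 0 counts in NC and in WT, and was at least 29.3-fold higher. Both were present in all 3 ESX1 samples, which the rule for naming required, as NC had 0 counts.

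CD7, a cell surface glycoprotein best known from T cells, had 9.63, 3.62 and 3.51 CPM in ESX1 and 1 count in all of NC, a ratio of 171 with a 95% counting interval of 30.3 to 6812. COMP, a cartilage matrix protein, had 3.04, 1.41 and 1.66 CPM and 1 count in NC, a ratio of 60.5 (10.4 to 2436). These intervals cover counting error only. The 6 immune genes, which do not include CD7, summed to 1.29 CPM or less in every ESX1 sample, as given above.

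Among rises with counts in the controls, ZNF469, a zinc finger gene of the cornea, stood at 35.5, 11.9 and 15.9 CPM in ESX1 and 0.933, 0.214 and 0.102 CPM in NC, a log2 difference of 5.62 (SE 0.54). NPTX1, a secreted neuronal pentraxin, was at 46.6, 32.1 and 32 CPM against 1.14, 0.643 and 0.509 CPM, 5.57 (SE 0.35) (adjusted p = 4.48e-08). CD248, also called endosialin, was at 13.9, 4.53 and 3.14 CPM against 0, 0.429 and 0 CPM, 5.58 (SE 0.91), and all its NC counts came from replicate 2. In each of the 3 genes ESX1 replicate 1 was the highest sample, and groups without overlap were a condition for being named.

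In the next set the level was well above the controls in every ESX1 sample. ADAM19, a membrane metalloprotease, rose from 6.22, 6.32 and 4.07 CPM in NC to 158, 89.9 and 96.1 CPM in ESX1, 4.37 (SE 0.26) with an adjusted p of 2.09e-08. It lies on chromosome 5, bases 157395534 to 157575775 on the minus strand. GRIN2B, a subunit of the NMDA glutamate receptor, rose from 4.66, 5.36 and 4.07 CPM to 100.2, 87.5 and 65.6 CPM, 4.17 (SE 0.19) with an adjusted p of 1.36e-09. It lies on chromosome 12, bases 13437942 to 13981957 on the minus strand, and WT stood lower still at 1.53, 1.75 and 1.36 CPM. HMCN1, an extracellular hemicentin, rose from 4.35, 2.36 and 5.5 CPM to 74.8, 67.2 and 50.1 CPM, 3.97 (SE 0.26). These 3 genes were called in every fit that left out a sample. The lowest ESX1 sample was replicate 2 for ADAM19 and replicate 3 for the other two.

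The non-coding LINC01314 went from 0.104, 0 and 0.305 CPM to 6.89, 6.74 and 5.91 CPM and KCNIP4-IT1, an RNA from an intron of KCNIP4, from 0.104, 0.322 and 0 CPM to 4.77, 8.95 and 3.69 CPM. Both had only a few NC counts, and both were called in every fit that left out a sample.

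**Figure D2:**
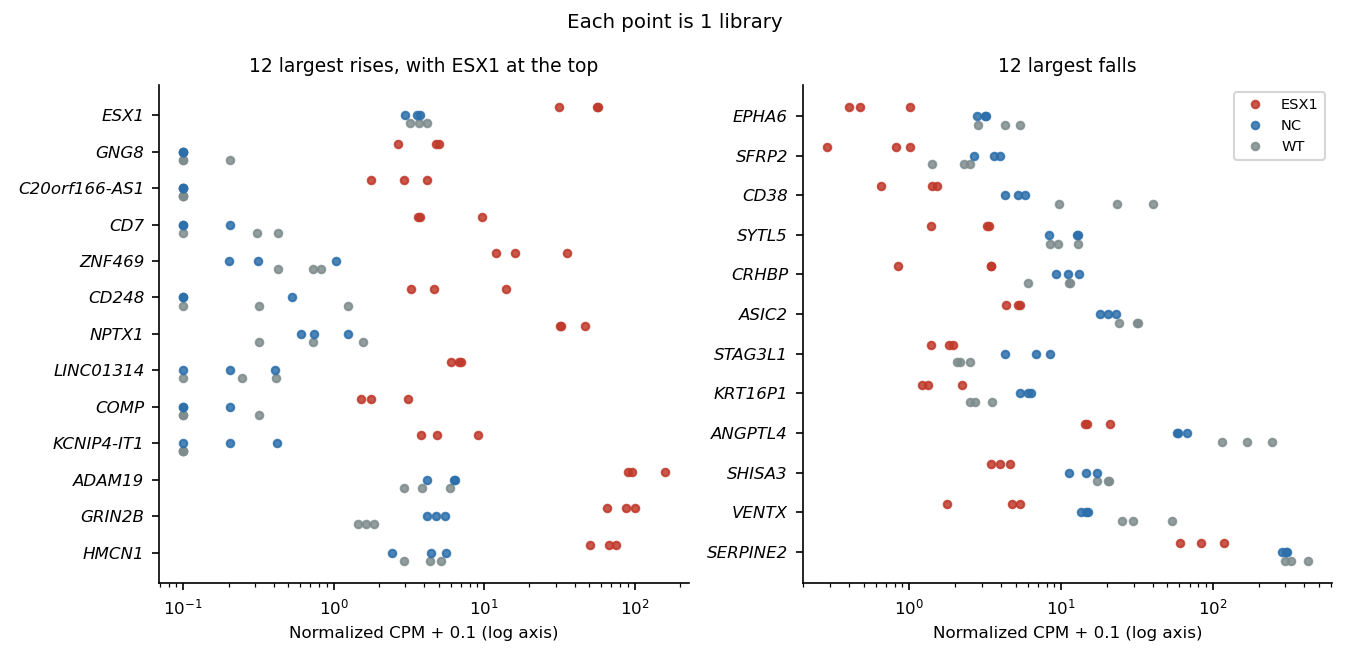
CPM + 0.1 on a log axis, 1 point per sample, of ESX1 with the 12 largest rises (left) and of the 12 largest falls (right) outside the study's own genes. The 3 ESX1 points lie apart from the 3 NC points in every gene, which was a condition for being named. The WT points (grey) are on the NC side in most genes, and in SFRP2, STAG3L1 and KRT16P1 they lie between ESX1 and NC.

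The largest falls were smaller than the largest rises. EPHA6, an ephrin receptor, fell from 3.11, 2.68 and 3.05 CPM in NC to 0.913, 0.302 and 0.369 CPM in ESX1, −2.4 (SE 0.47). SFRP2, a secreted WNT antagonist, fell from 3.52, 2.57 and 3.87 CPM to 0.71, 0.905 and 0.185 CPM, −2.32 (SE 0.48), and was not called without NC replicate 3. CD38, an NAD-consuming ectoenzyme, fell from 5.08, 4.18 and 5.7 CPM to 1.42, 1.31 and 0.554 CPM, −2.08 (SE 0.50), with WT at 9.5, 23.2 and 40.4 CPM. The CD38 call was lost in 4 of the 9 fits that left out a sample (without ESX1 replicates 2 or 3 or NC replicates 1 or 3).

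ASIC2, an acid-sensing sodium channel, fell from 22.9, 17.8 and 20.2 CPM to 5.07, 5.23 and 4.25 CPM, −2.04 (SE 0.20) with an adjusted p of 1.01e-05. SERPINE2, an inhibitor of thrombin and plasminogen activators, fell from 285, 302 and 306 CPM to 83.1, 119 and 60.2 CPM, −1.76 (SE 0.19), adjusted p = 2.56e-05. ANGPTL4, a secreted inhibitor of lipoprotein lipase, fell from 67.6, 58 and 58.3 CPM to 20.8, 14.3 and 14.8 CPM, −1.87 (SE 0.22), while WT stood at 114, 166 and 246 CPM. All 3 kept their calls in every fit that left out a sample and with the interferon covariate.

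VENTX, a homeobox gene, was at 5.27, 4.63 and 1.66 CPM in ESX1, 14.4, 15 and 13.4 CPM in NC and 25.1, 29.6 and 53.6 CPM in WT (−1.8 (SE 0.32) against NC). SYTL5, which binds secretory vesicles, was at 3.24, 3.12 and 1.29 CPM against 12.5, 8.15 and 12.8 CPM, and SHISA3, a WNT and FGF attenuator, at 3.35, 4.53 and 3.88 CPM against 11.2, 17 and 14.4 CPM. CRHBP, which binds corticotropin-releasing hormone, was at 3.35, 3.32 and 0.739 CPM against 9.12, 13 and 11 CPM, with ESX1 replicate 3 the lowest. Each of these 4 genes was downregulated, and groups without overlap were a condition for being named. KRT16P1 and STAG3L1, at 1.22, 2.11 and 1.11 CPM and 1.83, 1.71 and 1.29 CPM in ESX1 against 5.29, 5.9 and 6.21 CPM and 8.29, 6.75 and 4.17 CPM in NC, were also called lower. Both have near-identical copies in the genome, so how their reads were assigned is uncertain. With the interferon covariate SHISA3 kept its call, while VENTX, SYTL5, CRHBP, KRT16P1 and STAG3L1 lost theirs, as did EPHA6, SFRP2 and CD38.

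Genes without an established name, those that carry only a clone identifier, made up 2584 of the tested genes. Of these, 6 were called higher and 23 lower (1.12%), and the median log2 difference was −0.09. The counts were made without regard to strand, so reads of an overlapping neighbour on the other strand cannot be told apart from them.

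The 4 leading rises by rule were low. CTC-459F4.1 was at 19.6, 17.5 and 11.1 CPM in ESX1, 4.46, 4.18 and 2.65 CPM in NC and 1.09, 1.46 and 0.836 CPM in WT, 2.11 (SE 0.28) against NC with an adjusted p of 0.000256, and was called in every fit that left out a sample. RP4-568C11.4 was at 3.35, 4.23 and 4.25 CPM in ESX1, 2.07, 0.858 and 0.611 CPM in NC and 4.48, 3.5 and 2.61 CPM in WT, so ESX1 and WT overlapped and NC was the low group. Its call was lost in 4 of 9 fits (without ESX1 replicates 2 or 3 or NC replicates 2 or 3). AC093642.1 was at 3.35, 1.71 and 1.48 CPM against 0, 0.536 and 0.102 CPM and RP11-830F9.7 at 3.75, 2.01 and 2.03 CPM against 0.415, 0.75 and 0.407 CPM. The call of AC093642.1 was lost in 5 of 9 fits (without any ESX1 sample or NC replicates 1 or 3), and that of RP11-830F9.7 without any 1 of the 6 ESX1 and NC samples.

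Of the 4 leading falls, RP1-97G4.1 was at 0.304, 0.604 and 0.924 CPM in ESX1 and 2.38, 4.29 and 3.26 CPM in NC, −2.51 (SE 0.45), and was called in every such fit. RP11-848G14.5 was at 0.203, 0.402 and 0.739 CPM against 2.9, 3.75 and 1.93 CPM and was not called without NC replicate 2. RP1-187B23.1 was at 0.406, 0.704 and 1.11 CPM against 3.42, 2.14 and 3.36 CPM and was not called without ESX1 replicate 1 or NC replicates 1 or 3. CTD-3065B20.2 was at 0.304, 0.402 and 0.924 CPM against 2.07, 2.04 and 2.54 CPM and lost its call in 7 of 9 fits, all but those without WT replicates 1 or 3. In WT this gene was at 0.546, 0.729 and 0.313 CPM, a range that overlaps that of ESX1.

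Among named non-coding genes picked after their values were seen, the antisense RNA ADAMTS9-AS1 was at 3.65, 8.45 and 7.02 CPM in ESX1 against 16.9, 14 and 15.9 CPM in NC, −1.3 (SE 0.26), and was not called without ESX1 replicate 1. Its coding partner ADAMTS9, a matrix protease, was at 94, 124 and 93.5 CPM against 265, 237 and 247 CPM, −1.26 (SE 0.12). Both were downregulated, and with counts that ignore strand the 2 cannot be separated where they overlap. LINC00937 was at 41.9, 38.6 and 37.5 CPM against 108, 82.6 and 96.3 CPM, and the embryonic stem cell RNA LNCPRESS2 at 2.74, 3.92 and 3.51 CPM against 6.32, 7.93 and 6.72 CPM, both called lower. TUNAR, a non-coding RNA of pluripotent and neural cells, was at 3.65, 8.35 and 2.77 CPM against 12.7, 11.1 and 13.1 CPM, and PCAT14 at 68, 111 and 65 CPM against 175, 179 and 182 CPM, with WT at 340.2, 473 and 607 CPM. The calls of LNCPRESS2 and TUNAR were lost without ESX1 replicates 1 or 3 and without NC replicates 1 or 3, that of LNCPRESS2 also without NC replicate 2, and that of PCAT14 without ESX1 replicate 3.

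Most pluripotency and seminoma identity genes had lower levels in ESX1 than in NC. Of 30 tested members, 0 were called higher and 5 lower (16.7%, beside 0.699% of all tested genes). At an adjusted p under 0.05 with no minimum fold 13 were lower, and 27 of 30 had a negative log2 difference. The median was −0.60 beside 0.00 over all tested genes. The 5 were NANOG, L1TD1, FGF4, ZSCAN10 and PRDM14, and all but PRDM14 were among the genes that the study had picked from these samples. Leaving out any 1 sample gave 4 to 6 calls, and the interferon covariate 3.

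NANOG, a homeobox factor that maintains pluripotency, was at 161, 191 and 172 CPM in ESX1, 414, 409 and 430.2 CPM in NC and 601, 738 and 798 CPM in WT, −1.26 (SE 0.12) against NC with an adjusted p of 7.00e-06. L1TD1, an RNA-binding protein derived from a LINE-1 element, was at 261, 369 and 256 CPM, 623, 665 and 674 CPM and 742, 828 and 761 CPM in the same order, −1.15 (SE 0.13). FGF4, a growth factor of early embryonic cells, was at 6.59, 12.4 and 8.31 CPM, 25.6, 22.1 and 22.5 CPM and 25.2, 25.4 and 17 CPM, −1.35 (SE 0.23). In these 3 genes every ESX1 sample lay below every NC sample. ZSCAN10, a zinc finger factor of pluripotent cells, was at 7.5, 5.53 and 4.43 CPM against 16.7, 13.1 and 14.6 CPM, −1.31 (SE 0.27). PRDM14, which represses somatic genes in germ cell precursors, was at 5.88, 4.23 and 8.13 CPM, 14.8, 12.4 and 12.1 CPM and 42.6, 64.1 and 84.4 CPM, −1.16 (SE 0.26), and was not called without ESX1 replicate 2 or NC replicate 1. NANOGP8, a retrogene nearly identical to NANOG, was called lower at 9.94, 10.2 and 8.87 CPM against 26.6, 23.2 and 28.1 CPM, and reads of the 2 genes may have been exchanged.

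Smaller differences, below the 2-fold threshold, were measured in other core factors. POU5F1 was at 636, 540.2 and 413 CPM in ESX1, 1020.4, 850.0 and 851 CPM in NC and 1107, 1292 and 1404 CPM in WT, a log2 difference of −0.77 (SE 0.14) from NC. TFAP2C, which with PRDM1 and SOX17 specifies human germ cells, was at 447, 476 and 399 CPM against 717, 738 and 708 CPM, −0.71 (SE 0.10), and PRDM1 at 36.3, 48.7 and 34.5 CPM against 68.4, 70.4 and 63.3 CPM, −0.75 (SE 0.13). All 3 passed the adjusted p and not the fold. SOX17, in contrast, was at 294, 196 and 245 CPM against 254, 254 and 246 CPM, −0.03 (SE 0.14), and its groups overlapped. KIT, the stem cell factor receptor, was at 12.8, 12 and 12.7 CPM in ESX1, 21.5, 18.5 and 20.4 CPM in NC and 51.1, 77.1 and 106 CPM in WT, with a difference from NC of −0.69 (SE 0.22) that did not pass the adjusted p. LIN28A (85.6, 105 and 58.6 CPM against 140.1, 133 and 133 CPM), DPPA4 (86.2, 102 and 74.4 CPM against 145, 155 and 153 CPM), PDPN (138, 169.6 and 146 CPM against 234, 226 and 222 CPM) and ALPL (141, 145 and 127 CPM against 204, 192 and 192 CPM) passed the adjusted p and not the fold. SOX2, which seminoma cells keep low and other pluripotent cells use, was at 5.48, 7.95 and 10.2 CPM against 6.74, 11.8 and 11 CPM, with overlapping groups.

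NC also stood below WT for this list, with 1 member higher and 6 lower of 30 and a median of −0.50. NC is in both comparisons, so the values are given side by side and not combined. For NANOG the NC to WT difference was −0.77, and for FGF4 it was 0.06.

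**Figure D3:**
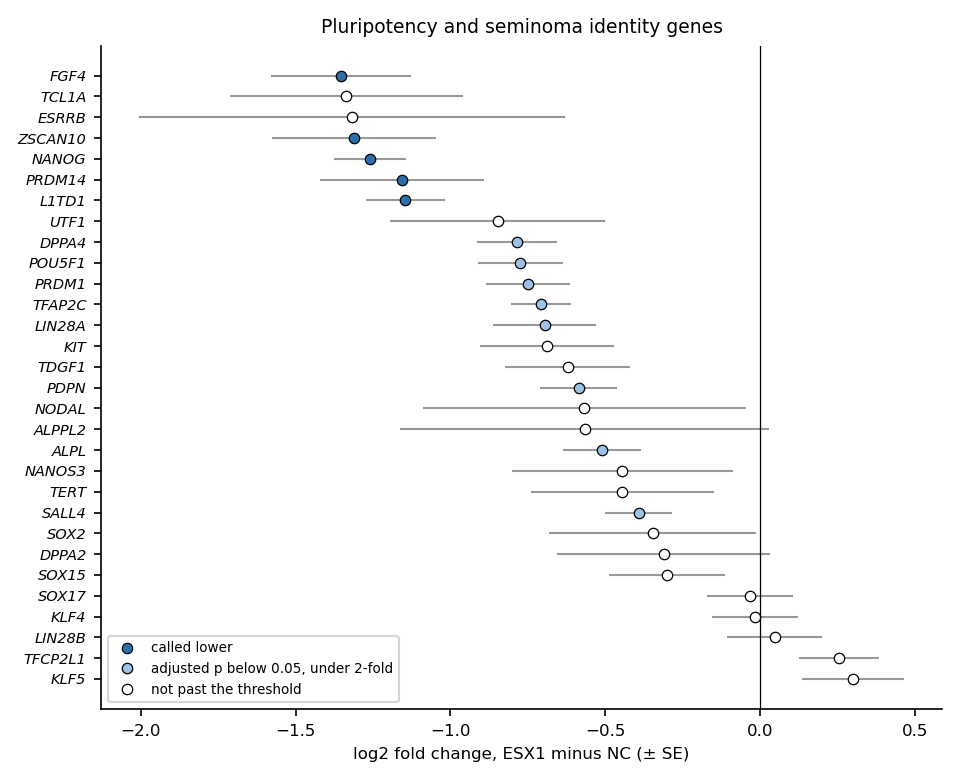
Each point is the log2 difference of ESX1 from NC of 1 of the 30 tested pluripotency and seminoma identity genes, with bars for 1 SE. The 5 called genes are dark blue, from FGF4 at −1.35 to L1TD1 at −1.15, those past the adjusted p alone are light blue, and SOX17 at −0.03 lies next to 0.

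Germ cell lists beyond pluripotency were examined next. Of 19 tested spermatogonial genes, 0 were higher and 2 lower (10.5%, beside 0.699% of all tested genes), with a median of −0.43, and 1 of the 2, L1TD1, is shared with the list above. The other was GFRA1, the GDNF co-receptor of spermatogonial stem cells, at 7.1, 5.03 and 5.17 CPM in ESX1, 14, 11.5 and 9.77 CPM in NC and 61, 85.3 and 126 CPM in WT. Its difference from NC was −1.01 (SE 0.26), against −2.95 between NC and WT, and its call was lost in 5 of 9 fits (without ESX1 replicates 2 or 3 or any NC sample). Of 23 meiosis genes, 1 was higher (4.35%, beside 1.08% of all tested genes) and 0 lower, with a median of −0.05. It was MEIOC, which keeps meiotic cells in prophase, at 15.8, 19.4 and 17.4 CPM against 6.32, 8.9 and 9.57 CPM, 1.08 (SE 0.21), and it was not called without ESX1 replicate 2 or NC replicate 1. Exons of other genes, CCDC43 among them, cover 32.7% of the MEIOC exon bases, and counts that ignore strand cannot separate the genes there. Of 14 cancer-testis antigens, 0 were called by edgeR, DESeq2 or limma and 1 had an unadjusted p under 0.05, with a median of 0.03.

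Cyclin D1 was the single called gene of the cell cycle lists. CCND1, which drives entry into S phase, was at 154, 137 and 104 CPM in ESX1, 61.7, 62.9 and 53.5 CPM in NC and 46.6, 30.03 and 34.7 CPM in WT, 1.15 (SE 0.16), adjusted p = 0.000392. The study had picked it too. Of 48 genes of G1/S and DNA replication, 1 was higher (2.08%, beside 1.08% of all tested genes) and 0 lower, and the median was −0.18. Of 48 genes of G2 and mitosis, 0 were called by edgeR, DESeq2 or limma, although 25 had an unadjusted p under 0.05 and 4 were lower without the fold threshold. Their median was −0.30, with 46 of 48 negative. Of 33 p53 targets, 1 was higher (3.03%) and 0 lower, with a median of 0.24. It was PLK2, a stress-induced kinase, at 82.7, 67.1 and 58.2 CPM against 32.8, 32.7 and 30.5 CPM, not called without ESX1 replicate 1. Of 56 replication-dependent histone genes, 0 were called between ESX1 and NC by edgeR, DESeq2 or limma, 5 had an unadjusted p under 0.05, and 50 were lower in NC than in WT.

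Extracellular matrix genes and proteases gave the most calls of any list apart from the study's own. Of 74 tested members, 11 were higher (14.9%) and 5 lower (6.76%), beside 1.08% and 0.699% of all tested genes, while the median of the list was −0.09, opposite in sign to the majority of its calls. Leaving out ESX1 replicate 1 gave 6 higher and 5 lower, leaving out any 1 NC sample gave 7 higher, and the interferon covariate gave 3 higher and 2 lower. The higher members included SPP1, TIMP3, ADAMTS16, ADAMTS3, TNC, THBS1, FBN1, HSPG2, LAMB3 and NID1, and the lower ones were SERPINE2, ADAMTS9, ADAMTS15, ADAMTS19 and LAMA4.

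SPP1, the secreted matrix protein osteopontin, was at 296, 207 and 213 CPM in ESX1, 45.5, 46.6 and 46.4 CPM in NC and 40.4, 11.8 and 3.86 CPM in WT, 2.37 (SE 0.42). TIMP3, an inhibitor of metalloproteases, was at 31.3, 25.7 and 20.1 CPM, 6.01, 3.97 and 4.27 CPM and 1.75, 1.31 and 1.15 CPM, 2.44 (SE 0.24) with an adjusted p of 1.01e-05. ADAMTS16, a matrix protease, was at 9.63, 10.2 and 14.8 CPM against 2.07, 1.72 and 1.63 CPM, 2.65 (SE 0.32). All 3 were upregulated and were also study genes, whereas the next 4 were not.

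TNC, the matrix protein tenascin-C, was at 29.3, 36.1 and 21.1 CPM against 10.3, 8.15 and 9.16 CPM, 1.66 (SE 0.27). THBS1, which activates latent TGF-beta, was at 115, 79.4 and 209 CPM against 48, 37 and 50.9 CPM, 1.56 (SE 0.28), with ESX1 replicate 3 the highest. FBN1, a microfibril protein, was at 42.9, 30.2 and 28.6 CPM against 14.3, 11 and 18.7 CPM, 1.21 (SE 0.21), and was not called without ESX1 replicate 1. HSPG2, the basement membrane protein perlecan, was at 120.4, 46.2 and 57.6 CPM against 46.3, 34.2 and 30.5 CPM, so ESX1 replicate 2 lay within the NC range, and its call was lost in 5 of 9 fits (without ESX1 replicates 1 or 3 or any NC sample), with a log2 difference as low as 0.48. TNC, THBS1, FBN1 and HSPG2 were named after their values were seen.

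The calls among adhesion receptors and epithelial genes were all higher in ESX1. Of 44 integrins, ephrins and other adhesion receptors, 4 were higher (9.09%, beside 1.08% of all tested genes) and 0 lower with a median of 0.00. At an adjusted p under 0.05 with no minimum fold 7 were higher and 7 lower, so the single direction holds only at 2-fold. EPHA4, an ephrin receptor, was at 9.84, 11.9 and 8.31 CPM against 3.42, 3.86 and 1.93 CPM, 1.71 (SE 0.30), and ITGB4, the hemidesmosome integrin, at 86.6, 45.3 and 110.5 CPM against 39.1, 38.2 and 36.1 CPM, 1.09 (SE 0.22), the latter not called without ESX1 replicate 3. ITGB8, which activates latent TGF-beta (44.8, 62.5 and 81.8 CPM against 24.8, 33.9 and 33.7 CPM), and EPHA10 (9.02, 5.23 and 6.47 CPM against 3.01, 2.68 and 2.75 CPM) lost their calls in 4 and 5 of 9 fits, both without ESX1 replicate 3 or any NC sample and EPHA10 also without ESX1 replicate 1.

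Of 45 epithelial junction and keratin genes, 3 were higher (6.67%) and 0 lower, with a median of 0.08. CLDN4, a tight junction claudin, was at 73.2, 51.4 and 44.9 CPM in ESX1, 21.1, 20.8 and 18.9 CPM in NC and 24.2, 17.5 and 18.6 CPM in WT, 1.48 (SE 0.18). ELF3, an epithelial ETS factor, was at 16.2, 15.1 and 9.61 CPM against 5.49, 5.36 and 6.11 CPM, 1.29 (SE 0.24). OVOL1, an epithelial zinc finger factor that the study had not picked, was at 16.2, 14.9 and 17 CPM against 7.77, 8.15 and 7.84 CPM, 1.01 (SE 0.24), and was not called without ESX1 replicate 3 or any NC sample.

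Of 21 genes of the mesenchymal transition, 0 were higher and 3 lower (14.3%, beside 0.699% of all tested genes), although the median was 0.22. VIM, the intermediate filament vimentin, was at 152, 204 and 132 CPM against 342, 326 and 332 CPM, −1.03 (SE 0.14), and was not called without ESX1 replicates 1 or 3. HMGA2, a chromatin architectural protein, was at 5.48, 11 and 5.54 CPM against 15.1, 20.04 and 23.3 CPM, −1.38 (SE 0.26). THY1, a surface glycoprotein, was at 1.22, 1.71 and 1.85 CPM in ESX1, 4.35, 5.36 and 3.36 CPM in NC and 13.2, 15 and 19.2 CPM in WT, −1.47 (SE 0.31), and was not called without NC replicate 2. With the interferon covariate edgeR called 0 of the 3.

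Of 39 vascular and receptor tyrosine kinase genes, 5 were higher (12.8%, beside 1.08% of all tested genes) and 1 lower (2.56%, beside 0.699%). The median was 0.11. When 1 sample was left out, 2 to 6 were higher (2 without NC replicate 2, 3 without ESX1 replicates 1 or 2 or NC replicates 1 or 3). KDR, the VEGF receptor that also marks mesoderm precursors, was at 9.02, 10.3 and 4.99 CPM against 0.829, 0.536 and 1.42 CPM, 3.12 (SE 0.49). IGFBP5, an IGF-binding protein, was at 14.6, 9.46 and 26.6 CPM against 2.9, 2.25 and 3.46 CPM, 2.52 (SE 0.43). PTPRB, a receptor phosphatase of endothelium, was at 14.9, 11 and 11.6 CPM against 3.01, 2.79 and 5.39 CPM, 1.74 (SE 0.36), and was not called without NC replicates 1 or 2. DDR2, a collagen receptor kinase, at 8.21, 7.44 and 5.91 CPM against 4.15, 1.82 and 2.34 CPM, and NRP2, a VEGF co-receptor, at 3.85, 2.01 and 2.03 CPM against 1.04, 0.214 and 0.611 CPM, were called higher. DDR2 was not called without ESX1 replicates 1 or 2 or NC replicates 2 or 3, and NRP2 not without any ESX1 or NC sample or WT replicate 2. The 1 lower gene was ANGPTL4. Of the 6 endothelial marker genes, 3 could be tested, and all 3 had an unadjusted p under 0.05, while edgeR, DESeq2 and limma called 0. VWF was at 41.1, 30.9 and 32.3 CPM against 29.2, 20.2 and 24.4 CPM, ESAM at 8.31, 2.31 and 2.03 CPM against 1.04, 0.536 and 2.85 CPM, and TEK at 13, 18.6 and 12.7 CPM against 22.9, 21.3 and 19.3 CPM, so VWF was above NC without overlap and TEK below it. The others were low, with CDH5 at 0.369 to 0.71 CPM against 0 to 0.207 CPM, PECAM1 at 0.201 to 0.507 CPM against 0 to 0.104 CPM, and EMCN at the floor. The part of endothelial genes in the vascular values was not tested.

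CXCL12, the ligand of the receptor CXCR4, was not in a list and was chosen after its values were seen. CXCL12 was at 12.6, 7.04 and 9.42 CPM in ESX1, 1.87, 1.39 and 1.32 CPM in NC and 7.32, 8.6 and 10.6 CPM in WT, 2.65 (SE 0.31) against NC. CXCR4, which guides germ cell migration, was at 67, 82.2 and 60.03 CPM in ESX1, 163, 159 and 167 CPM in NC and 185, 260.5 and 248 CPM in WT, −1.22 (SE 0.14). Ligand and receptor thus differed from NC in opposite directions, and against WT the ligand overlapped while the receptor was below every WT sample too. CXCR4 was 1 of 18 tested somatic germ layer genes, of which 1 was higher and 1 lower (5.56% each), with a median of 0.06. The higher one was TBX3, a T-box repressor, at 139, 133 and 166 CPM against 56, 52.6 and 61.4 CPM, 1.36 (SE 0.16).

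Among WNT genes, 4 of 37 were higher (10.8%, beside 1.08% of all tested genes) and 1 lower (2.7%, beside 0.699%), with a median of 0.12. WNT11, a ligand of the non-canonical pathway, was at 13.1, 7.04 and 9.24 CPM against 1.14, 0.75 and 1.02 CPM, 3.32 (SE 0.36) with an adjusted p of 2.95e-05. NOTUM, a secreted enzyme that inactivates WNT ligands and was not a study gene, was at 16.7, 9.05 and 10.5 CPM in ESX1, 1.66, 1.07 and 0.814 CPM in NC and 0.983, 2.92 and 2.4 CPM in WT, 3.35 (SE 0.39). DKK1, a secreted WNT antagonist, was at 2.64, 2.31 and 3.88 CPM against 0.622, 0.429 and 1.12 CPM and lost its call in 7 of 9 fits, all but those without WT replicates 1 or 3. The members thus include a ligand (WNT11), inhibitors (NOTUM and DKK1 higher, SFRP2 lower) and the target CCND1, which is also in the G1/S list.

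Of 37 genes of ERK and FGF feedback and immediate early response, 3 were higher (8.11%) and 2 lower (5.41%), with a median of 0.09. DUSP10, a phosphatase that inactivates p38 and JNK, was at 56, 63.8 and 47.1 CPM in ESX1, 12.2, 13.2 and 12.6 CPM in NC and 3.93, 2.04 and 0.627 CPM in WT, 2.14 (SE 0.26). FOSL2, an AP-1 subunit, was at 91.5, 63.5 and 113 CPM against 47.1, 39.1 and 45 CPM and HES1, a NOTCH target, at 11.3, 10.9 and 10.5 CPM against 5.6, 3.32 and 4.27 CPM. FOSL2 was not called without ESX1 replicates 1 or 3 or NC replicate 2, and HES1 not without NC replicates 2 or 3. The 2 lower genes were SPRY4 and ETV4. SPRY4, a feedback inhibitor of ERK signalling, was at 97.8, 143 and 92.9 CPM in ESX1, 248, 232 and 238 CPM in NC and 138, 151 and 93.2 CPM in WT, −1.1 (SE 0.17), and was not called without ESX1 replicate 3. ETV4, an ETS factor downstream of ERK, was at 17, 15.2 and 13.7 CPM against 36.3, 32.8 and 31.7 CPM, −1.12 (SE 0.15). FGF4, the ligand described above, was lower in the same samples. Between NC and WT the log2 difference was 0.06 for FGF4, 0.91 for SPRY4 and −0.40 for ETV4. A link between FGF4 and these 2 genes was not tested.

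In the retinoic acid list 1 of 20 was higher (5%), with a median of 0.36. CYP26A1, which degrades retinoic acid and is itself induced by it, was at 15.4, 12.6 and 16.6 CPM in ESX1, 1.45, 1.18 and 0.509 CPM in NC and 0.109, 0.729 and 0.731 CPM in WT, 3.81 (SE 0.38) with an adjusted p of 1.29e-05. Of 12 tested HOX genes, 0 were called by edgeR's test or limma and 1 by DESeq2, 2 had an unadjusted p under 0.05, and the median was 0.35.

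Trophoblast genes were examined because ESX1 is also a placental gene. Of 22 tested members, 2 were higher (9.09%, beside 1.08% of all tested genes) and 0 lower, with a median of 0.23. PAPPA, a protease that cleaves IGF-binding proteins, rose from 4.56, 5.36 and 5.29 CPM in NC to 70.9, 55.7 and 41.2 CPM in ESX1, 3.47 (SE 0.24) with an adjusted p of 1.25e-07, and was called in every fit that left out a sample. DLX3, a homeobox gene of the placenta and epidermis, was at 23.9, 18.7 and 13.5 CPM against 8.19, 12.2 and 7.94 CPM, 1.0 (SE 0.26), and lost its call in 7 of 9 fits, all but those without ESX1 replicate 3 or NC replicate 2. PAPPA was not among the genes picked by the study.

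**Figure D4:**
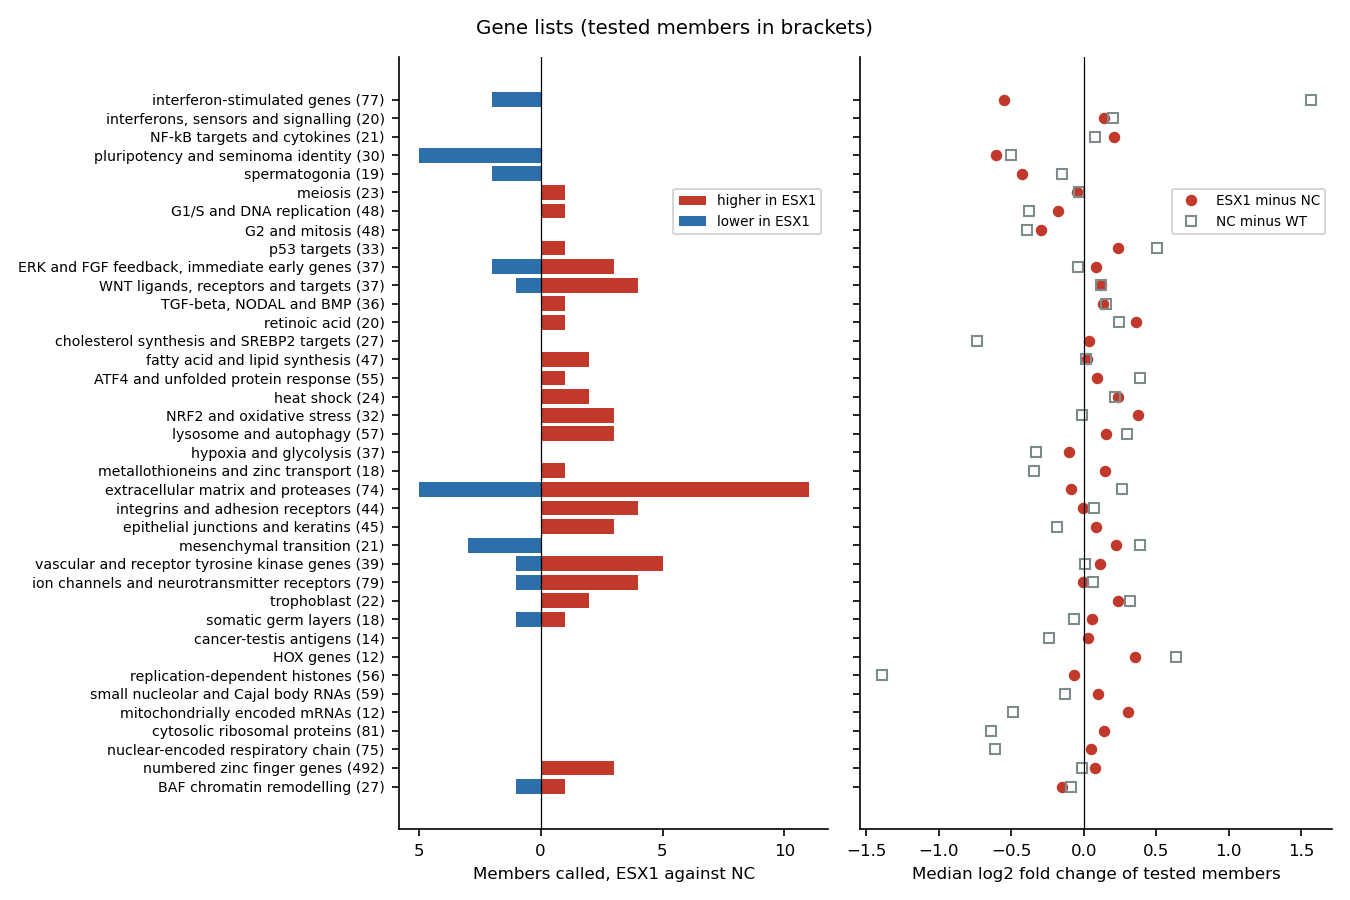
Each row is 1 gene list. The left panel counts its members called higher (red, to the right) or lower (blue, to the left) in ESX1 than in NC, and the right panel gives the median log2 difference of its tested members for ESX1 minus NC (circles) and NC minus WT (squares), comparisons that share the NC samples. The pluripotency, interferon-stimulated and spermatogonial lists have the lowest medians for ESX1 minus NC, −0.60, −0.55 and −0.43, and every other list drawn lies within 0.4 of 0.

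Transcription factors outside the lists, chosen after their values were seen, included T-box, SOX and zinc finger genes. TBX2, a T-box repressor, was at 2.94, 2.31 and 3.69 CPM in ESX1, 0.207, 0.322 and 0.305 CPM in NC and 0 in WT, 3.34 (SE 0.59). INSM1, a neuroendocrine zinc finger factor, was at 6.08, 2.82 and 3.69 CPM against 1.35, 0.322 and 0.204 CPM, and MAF, a bZIP factor, at 2.64, 2.51 and 4.06 CPM against 0.726, 0.322 and 0.611 CPM. SOX18, an endothelial SOX factor, was at 16.2, 3.92 and 6.65 CPM against 1.87, 2.57 and 1.73 CPM, and SOX9, the Sertoli cell factor, at 5.78, 3.32 and 4.25 CPM against 1.45, 0.643 and 1.63 CPM. For SOX9, WT was at 2.18, 2.33 and 2.82 CPM, above every NC sample, and the log2 difference of ESX1 from WT (0.86) did not pass the adjusted p. TBX2 was called in every fit that left out a sample. INSM1 was not called without ESX1 replicates 1 or 3 or NC replicates 2 or 3, MAF without ESX1 replicate 3 or NC replicates 2 or 3, SOX18 without ESX1 replicate 1 or NC replicates 1 or 3, and SOX9 without ESX1 replicate 1 or NC replicate 2. EBF2, an early B-cell family factor, went the other way, at 43.7, 58.1 and 50.2 CPM in ESX1 against 136, 124 and 125 CPM in NC and 183, 212 and 192 CPM in WT, −1.34 (SE 0.12), and was called in every such fit.

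Of 492 numbered zinc finger genes, 3 were higher (0.61%, beside 1.08% of all tested genes) and 0 lower, with a median of 0.08. Besides ZNF469 these were ZNF165 (9.43, 4.63 and 8.87 CPM against 3.94, 2.25 and 2.95 CPM) and ZNF114 (34.8, 28.1 and 20.3 CPM against 16.8, 12.5 and 12.5 CPM), whose calls were lost in 4 and 6 of 9 fits. Both were lost without ESX1 replicate 1 or NC replicates 2 or 3, ZNF165 also without ESX1 replicate 3, and ZNF114 also without ESX1 replicate 2 or WT replicates 2 or 3. Of 27 subunits of the BAF chromatin remodelling complex, 1 was higher and 1 lower (3.7% each) with a median of −0.15. SMARCA2, an ATPase of the complex, was at 21.9, 16.5 and 27 CPM in ESX1, 9.33, 10.5 and 8.75 CPM in NC and 15, 19.5 and 23.5 CPM in WT, 1.18 (SE 0.22). BCL11B, a zinc finger subunit, was at 57.6, 56.3 and 43.8 CPM against 98.1, 116 and 109 CPM, −1.03 (SE 0.12), and was not called without ESX1 replicate 3 or NC replicate 2.

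Ion channels and neurotransmitter receptors, to which GRIN2B belongs, had 4 of 79 members higher (5.06%) and 1 lower (1.27%) with a median of 0.00. KCNA5, a potassium channel, had 2.43, 1.91 and 1.48 CPM in ESX1 and 1 count in all of NC, a ratio of 58.3 with a counting interval of 9.995 to 2345. The lower member was the potassium channel KCNA2. CACNA1E, a calcium channel subunit, was at 7.2, 5.73 and 8.31 CPM against 2.38, 2.36 and 2.54 CPM and was not called without ESX1 replicate 3 or any NC sample. ANK2, which anchors channels to the membrane skeleton and was chosen after its values were seen, was at 37.3, 40.04 and 31.2 CPM against 77.6, 81.2 and 69.2 CPM, −1.06 (SE 0.12), and was not called without ESX1 replicate 3.

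A pair of pigment cell genes rose although no pigment list had been drawn up, and they were chosen after their values were seen. PMEL, a fibril protein of melanosomes, was at 19.3, 11.5 and 11.5 CPM in ESX1, 1.97, 0.858 and 1.53 CPM in NC and 0.655, 1.17 and 1.04 CPM in WT, 3.27 (SE 0.34). OCA2, a melanosomal transporter, was at 7.81, 5.63 and 4.43 CPM against 0.829, 0.107 and 0.407 CPM, 3.7 (SE 0.60). Chosen in the same way, HR, a corepressor of nuclear receptors, was at 40.2, 16 and 31 CPM against 2.38, 1.72 and 3.16 CPM, 3.57 (SE 0.32). MAPK12, a p38 kinase, was at 16.3, 10.1 and 9.24 CPM against 1.45, 1.5 and 0.916 CPM, 3.2 (SE 0.33), and KLHDC8A at 15.3, 10.6 and 9.61 CPM against 0.933, 0.965 and 0.916 CPM, 3.65 (SE 0.36). These 5 genes were called in every fit that left out a sample and with the interferon covariate. EEF1A2, a tissue-restricted elongation factor, was at 177, 75.7 and 81.8 CPM against 33.6, 31 and 29.8 CPM, and GPRC5A, an orphan receptor, at 121, 67.3 and 149.8 CPM against 44.5, 39.7 and 39.3 CPM. Both lost their calls with the covariate.

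For the stress and lysosome genes WT levels are given as well, since several of them also differed between NC and WT, and NC is shared by both comparisons. Of 32 NRF2 and oxidative stress genes, 3 were higher (9.38%, beside 1.08% of all tested genes) and 0 lower in ESX1 than in NC, 8 were higher without the fold threshold, and the median was 0.37. HMOX1, which degrades haem, was at 141, 47.4 and 77.8 CPM in ESX1, 24.4, 23.2 and 21 CPM in NC and 2.62, 1.31 and 0.94 CPM in WT, with log2 differences of 1.96 (SE 0.29) from NC and of 3.79 between NC and WT. FTL, a ferritin chain, was at 1455, 950.4 and 1288 CPM, 626, 543 and 565 CPM and 282, 219.5 and 252 CPM, 1.09 (SE 0.14) and 1.2. SQSTM1, the autophagy receptor p62, was at 473, 235 and 310.3 CPM, 159, 133 and 131 CPM and 49.9, 54.7 and 53 CPM, 1.27 (SE 0.18) and 1.42. In all 3 ESX1 replicate 1 was the highest sample and replicate 2 the lowest of ESX1. FTL and SQSTM1 were not called without ESX1 replicate 1, and with the interferon covariate 0 members were called. Of the enzymes NQO1 (257, 183 and 157 CPM against 137, 129 and 124 CPM) and TXNRD1 (334, 276 and 291 CPM against 204, 196 and 205 CPM) passed the adjusted p and not the fold, and GCLM (58.1, 42.8 and 52.8 CPM against 30.7, 43.1 and 39.9 CPM) passed neither.

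Of 57 lysosome and autophagy genes, 3 were higher (5.26%) and 0 lower, with a median of 0.16. RRAGD, a GTPase that brings mTORC1 to the lysosome and was not picked by the study, was at 59.3, 61.5 and 47.5 CPM in ESX1, 6.32, 5.57 and 4.58 CPM in NC and 1.97, 3.06 and 2.82 CPM in WT, 3.35 (SE 0.19) with an adjusted p of 2.09e-08. It was called in every fit that left out a sample and with the covariate. LGALS3, a galectin that marks damaged lysosomes, was at 46.5, 56.6 and 39.2 CPM against 19.6, 25.5 and 20.3 CPM, 1.13 (SE 0.18), and was not called without ESX1 replicate 2. The other was SQSTM1.

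Of 24 heat shock genes, 2 were higher (8.33%) and 0 lower with a median of 0.24. They were the inducible chaperones HSPB8 (29.5, 13.9 and 13.1 CPM in ESX1, 5.8, 6.22 and 4.58 CPM in NC and 1.64, 1.6 and 0.418 CPM in WT) and HSPA6 (21.2, 8.15 and 5.36 CPM, 3.52, 2.79 and 1.53 CPM and 0.546, 0 and 0 CPM), the latter not called without ESX1 replicate 1 or NC replicates 2 or 3. Of 55 ATF4 and unfolded protein response genes, 1 was higher (1.82%) with a median of 0.09. It was VLDLR, a lipoprotein receptor, at 38.6, 33.3 and 33.2 CPM against 14, 15.5 and 15.6 CPM, which was not called without any 1 of the NC samples. Of 37 genes of hypoxia and glycolysis, 0 were called by edgeR, DESeq2 or limma, 9 had an unadjusted p under 0.05, and the median was −0.10. The metallothionein and zinc transport list had 1 higher of 18 (5.56%), with a median of 0.15. It was the zinc transporter SLC30A3, with 2.13, 1.61 and 1.66 CPM in ESX1 and 2 counts in NC, a ratio of 26.3 (counting interval 6.87 to 223), and it was not called without NC replicates 2 or 3.

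In lipid metabolism, 2 of 47 genes of fatty acid and lipid synthesis were higher (4.26%) and 0 lower, with a median of 0.02. FADS1, a desaturase of polyunsaturated fatty acids, was at 145, 155 and 115 CPM in ESX1, 27.3, 27.4 and 26.8 CPM in NC and 30.1, 49.7 and 58 CPM in WT, 2.35 (SE 0.19) with an adjusted p of 9.38e-07. GPAT3, an acyltransferase of triglyceride synthesis, was at 12.8, 14.5 and 14.2 CPM, 4.25, 3.97 and 4.89 CPM and 0.983, 0.729 and 0.418 CPM, 1.66 (SE 0.25). Both kept their calls with the covariate and had been picked by the study. Of 27 cholesterol synthesis genes, 0 were called against NC by edgeR, DESeq2 or limma, 4 had an unadjusted p under 0.05, and the median was 0.04. Between NC and WT, 7 of them were lower in NC.

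The housekeeping lists had 0 calls by edgeR, DESeq2 or limma. These were the 12 mitochondrially encoded mRNAs (median 0.31), 81 cytosolic ribosomal protein genes (0.14), 75 nuclear-encoded respiratory chain genes (0.05) and 59 small nucleolar and Cajal body RNAs (0.10). An unadjusted p under 0.05 was reached by 2, 20, 7 and 8 of them in that order. The mitochondrial mRNAs were positive in 12 of 12. They summed to 3684 to 4438 CPM in ESX1 and 3352 to 3710 CPM in NC. They are thus only a small part of the mitochondrial share given above, whose difference lies mostly in other mitochondrial genes. Removing the mitochondrial genes before normalization kept 326 of 328 calls.

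The promoters of the called genes were searched for short motifs that were chosen after the values were known. The window ran from 250 bases before to 50 after the gene start in RefSeq, and both strands were read. TAATTA, a core that many homeodomains bind and that reads the same on both strands, was in 2 of 141 promoters of higher genes (1.42%) and 5 of 71 promoters of lower genes (7.04%). Of all promoters 4.98% held it, and of those of tested genes 2.09%. GAAANNGAAA was in 4 of 141 higher genes (2.84%), 1 of 71 lower genes (1.41%) and 2.61% of tested genes, whereas 37 of 61 interferon-stimulated genes held it (60.7%). The TATA box core TATAAA was in 16 of 141 higher genes (11.3%), 13 of 71 lower genes (18.3%), 6.31% of tested genes and 12% of all promoters. A match of these letters is a description of the window and not evidence of binding.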

How the data were processed

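Total RNA of the 9 samples was depleted of ribosomal RNA, made into stranded paired-end libraries and sequenced by the authors. They aligned the reads with HISAT2 2.0.5 to GRCh38 and deposited raw gene counts from featureCounts (version 1.5.2 in the table's header, 1.6.5 in the submitters' processing notes) over exons of GENCODE 26, with no strand option. A second table that the authors deposited holds log2 values normalized with DESeq2. It was used for gene symbols and for 1 alternative test.

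The members and gene lists were chosen with earlier results of these data known. From the counts, 18452 of 63856 genes passed edgeR's filterByExpr and were tested with edgeR 4.0.16 (R 4.3.3): TMM factors, a quasi-likelihood fit of all 9 samples with 3 group means, the contrast ESX1 minus NC, with p-values adjusted across every tested gene by the Benjamini-Hochberg method. Replicate numbers were not used as pairs, since same-numbered ESX1 and NC samples did not all deviate together. Nothing in the sources ties each replicate to its own culture beyond the words biological replicates, so p-values measure the spread between these samples.

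Genes named are ESX1, the 12 largest rises and 12 largest falls (4 each for clone-named genes) among called, non-overlapping genes with a mean of at least 2 CPM in the higher group and outside the study's own genes, up to 4 called members per list by adjusted p, and the 8 most abundant interferon-stimulated genes. Some genes that this rule takes are not reported here. Others are said to be chosen after their values were seen. For several named genes a sizeable share of exon bases lies in exons of other genes, where counts that ignore strand cannot separate them. The share was 32.7% for MEIOC, 27.1% for OVOL1, 24.4% for VIM and 22.0% for SQSTM1. It was 21.5% for STAG3L1, 21.2% for PAPPA, 18.6% for ASIC2 and 16.9% for ELF3. Intervals on ratios are exact for Poisson counts at 95%. Alternatives used RLE and upper-quartile factors, other filters, 6 samples only, a replicate block, an interferon covariate, DESeq2 1.42.0, limma 3.58.1, glmTreat and leaving out each sample. Scripts were tested on simulated data. The gRNA sequences were not used here.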

Additional observations from a re-analysis of the deposited data

How the results depend on the processing

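Main counts of 199 higher and 129 lower genes stayed within 1.5 times under RLE or upper-quartile factors, the 6 samples alone, removal of the interferon lists, DESeq2 (220 and 138) and, chosen after seeing the data, removal of mitochondrial genes. The higher count moved to 102 with at least 10 counts required in every sample (fewer genes tested), 72 with the interferon covariate, 111 with limma on the log2 values, 346 with no minimum fold and 85 with glmTreat, and ran from 1.2e+02 (rounded to 2 digits, without NC replicate 3) to 228 when 1 sample was left out. The lower count moved to 36 (covariate), 66 (limma), 438 (no minimum fold) and 43 (glmTreat), and ran from 82 to 211. The 2 lower interferon-stimulated genes became 18 with no filter on low counts, 17 with the replicate block, 0 with the covariate, 16 with limma, 6 with no minimum fold, 0 with glmTreat and 0 to 34 when 1 sample was left out, where ESX1 replicate 2 sets the upper end. Beyond the samples and genes left out by construction, the cause was not tested. With the replicate block the counts were 202 and 156, and 312 of 328 calls were kept. Same-numbered ESX1 and NC samples had correlated deviations of 0.19, 0.09 and 0.02, and ESX1 replicate 3 correlated best with NC replicate 2 (0.03), so the numbers were not taken as pairs. The log2 difference of ESX1 itself was 2.91 (limma) to 4.1 (covariate), 3.72 to 4.09 with 1 sample left out and 3.81 with the block. Signs reversed with the covariate for EIF2AK2 (0.0891), ZC3HAV1 (0.0948), IFIT1 (0.0465) and ISG15 (0.99), none of them called, and for CH507-513H4.4 (−117.87, a fit without a usable estimate), which ran from −1.84 (reversed, without ESX1 replicate 3) to 14.51 with 1 sample left out. In the same fits ISG15 ran from −3.07 to 0.0615 (reversed, without ESX1 replicate 1) and SOX17 from −0.188 to 0.103 (reversed, without ESX1 replicate 2). Of the 86 called genes named by rule, 53 were called in all 9 fits that leave out a sample, 18 were lost in 1 to 3 of them and 15 in 4 or more.

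With 3 samples a group, ESX1 replicate 3 at 5212804 counts and 54 of the higher genes under 1 CPM in NC, the folds of low genes are imprecise. Depth does not resolve differences among genes with few counts.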
